A study of Mus musculus with 18 samples.

Results

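The actins and the contractile genes that depend on serum response factor (SRF) were followed as a group of 40 genes, chosen by a list of mouse gene symbols that held actin isoforms, myosin chains, tropomyosins, calponins and transgelins, actin crosslinkers, LIM proteins and Srf itself. The symbols matched 41 of the 54347 rows of the deposited table, because Myl12b names 2 annotated genes. Their transcripts were measured by RNA-seq in mesenchymal stem cells (MSC) of mouse bone marrow, adherent progenitors that can form fat and bone. All cells were wild type and came from a primary line that was made from the pooled marrow of male C57BL/6J mice, so p-values measure the spread between preparations of 1 line, which may be technical, and not between animals. In the first experiment the cells were untransfected, and were left untreated (control), treated with CK666, which blocks the Arp2/3 complex and with it the branching of actin filaments, or treated with cytochalasin D (CytoD), a fungal toxin that caps the growing end of filaments. All cells of the second experiment were transfected, either with control siRNA (siControl) or with siRNA against Arp4 (siArp4), and in a further group the Arp4 siRNA was combined with CK666 (siArp4+CK666). Arp4, the product of Actl6a, is an actin-related protein of chromatin remodeling complexes. Each of the 6 groups held 3 libraries. The ages of the mice were not given in the labels, and the combination of siControl and CK666 was not analysed here, so the effect of CK666 in transfected cells could be read only on the background of the Arp4 knockdown.

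SRF is a transcription factor that binds the CArG box, an AT-rich core between CC and GG. Its actin-dependent cofactors, the myocardin-related transcription factors (MRTF), are held by monomeric actin, and filament growth frees them to enter the nucleus and switch on genes of actin, its crosslinkers and its motors. In stromal cells these genes build stress fibers and focal adhesions, and several of them are used as markers of smooth muscle and of contractile fibroblasts.

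CArG boxes were searched, on both strands, from 250 bases before to 50 bases after the annotated starts of 27025 genes with a RefSeq promoter entry (build GRCm38.p6). Of all these genes 1.81% held a box, against 10 of the 35 members with an entry (28.6%) and 5 of 37 genes with an entry (13.5%) from lists of other genes of the SRF pathway. The members with a box were Actg1, Acta1, Actc1, Myl9, Myl6, Cnn2, Vcl, Fhl1, Fhl2 and Srf. There was no entry for Actb, Actg2, Myh11, Tagln and Csrp2. A match is a description of letters and was not tested as a binding site. Stretches that hold a box and no base of an annotated exon of the gene are shown for 8 members on which the results turn, 5′ to 3′ on the strand of the gene with the box in capitals. They lie at chr11:120348543-120348625 (minus strand, Actg1), chr8:123894799-123894888 (minus, Acta1), chr2:156775263-156775352 (plus, Myl9), chr10:79988504-79988583 (plus, Cnn2), chr14:20929148-20929220 (plus, Vcl), chrX:56779541-56779630 (plus, Fhl1), chr1:43163962-43164032 (minus, Fhl2) and chr17:46556176-46556284 (minus, Srf). The first base of the box lay 90 bases upstream of the start in Actg1, 73 in Acta1, 161 in Myl9, 56 in Cnn2, 227 in Vcl, 102 in Fhl1 and 31 in Fhl2. Srf, the gene of the factor itself, held 2 boxes in a row, at 82 and 62 bases.
Actg1: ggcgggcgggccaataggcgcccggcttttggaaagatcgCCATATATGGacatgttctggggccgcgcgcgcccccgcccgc
Acta1: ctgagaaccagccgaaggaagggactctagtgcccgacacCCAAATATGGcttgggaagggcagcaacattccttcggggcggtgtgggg
Myl9: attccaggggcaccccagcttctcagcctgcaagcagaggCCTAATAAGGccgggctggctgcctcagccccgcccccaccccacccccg
Cnn2: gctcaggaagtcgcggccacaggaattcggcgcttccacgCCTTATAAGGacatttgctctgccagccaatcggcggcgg
Vcl: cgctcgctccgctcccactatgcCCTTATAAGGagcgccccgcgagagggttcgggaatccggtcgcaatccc
Fhl1: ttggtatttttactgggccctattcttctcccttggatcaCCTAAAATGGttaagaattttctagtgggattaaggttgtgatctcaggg
Fhl2: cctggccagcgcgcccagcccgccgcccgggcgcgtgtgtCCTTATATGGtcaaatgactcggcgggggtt
Srf: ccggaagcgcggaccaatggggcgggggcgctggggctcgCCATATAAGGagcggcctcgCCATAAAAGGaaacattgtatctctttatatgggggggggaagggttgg

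Libraries held from 18075610 to 24733212 estimated counts. In the check of the knockdown, Actl6a stood at 720.1, 1127 and 841 normalized counts with siControl, 48.9, 57.2 and 19 with siArp4 and 9.52, 22.9 and 17.9 with siArp4+CK666, so both knockdown groups lay wholly below siControl and overlapped with each other. Of 9 MSC surface markers, Thy1 was at 0 in every group and Nt5e and Eng were low, whereas Ly6a, Cd44, Itgb1, Pdgfra, Pdgfrb and Vcam1 were present. The sum of the 9, led by Itgb1, ran from 38500 to 39600 normalized counts in control, 26720 to 30610 with CK666, 31500 to 31970 with CytoD, 18530 to 32160 with siControl, 24830 to 27450 with siArp4 and 14860 to 20220 with siArp4+CK666. Single markers did not all follow it. With CytoD the means of Itgb1 (15470 against 24470) and Cd44 (1365 against 2834) were below control. Those of Ly6a, Eng, Pdgfra (3802 against 2528), Pdgfrb and Vcam1 (2256 against 1157) were above it. Ly6a had a mean of 2710 with siArp4 and 1015 with siControl. Of 9 smooth muscle markers, Myh11, Myocd and Kcnmb1 were at or near 0, Rgs5 was low, and Smtn, Actg2, Lmod1 and Cnn1 are members described below. The other marker, Des, encoding desmin of muscle intermediate filaments, had a mean of 767 in control, 1149 with CK666, 1481 with CytoD, 671 with siControl, 51.5 with siArp4 and 54.9 with siArp4+CK666. The smooth muscle sum ran from 6095 to 6827 in control, 3855 to 4389 with CK666, 3966 to 4333 with CytoD, 2957 to 5180 with siControl, 3577 to 3990 with siArp4 and 1416 to 1625 with siArp4+CK666. At or near 0 were also the skeletal and cardiac muscle, endothelial and blood lists, but for Acta1, Cd68, Csf1r and a few other genes. The summed level of 7 adipocyte markers, all above 0 in every group and most of the sum Lpl, moved with the groups. It ran from 20860 to 22040 normalized counts in control, 36180 to 37470 with CK666 and 58880 to 61420 with CytoD. In the second experiment the sum ran from 66380 to 79790 with siControl, 15760 to 16990 with siArp4 and 62010 to 64680 with siArp4+CK666. Not every adipocyte marker followed this sum. Lpl and Adipoq had lower means with siArp4+CK666 than with siControl. The others had higher means, such as Fabp4 (3589 against 2474) and Cd36 (114.8 against 31.2). Cd36 and Pparg had higher means with CK666 than with CytoD (152.7 against 109.5 and 4752 against 4494), and the others lower. The part of these cell type markers in the results on the contractile genes was not tested. In bulk RNA, fewer cells of a type and less RNA per cell cannot be told apart.

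Libraries stood apart by the length of transcripts. In siControl replicate 2 the 22 members with a longest transcript under 3000 bases had a median of 0.57 (log2) above the other libraries of their group, and the 14 members of 3000 bases or more a median of -0.62. CK666 replicate 1 deviated the same way, with medians of 0.36 and -0.28. Replicate 1 of siControl stood as far apart in the opposite direction. The slope of its log2 deviation from the group mean on log2 length was 0.36, against -0.31 for siControl replicate 2 and -0.23 for CK666 replicate 1. Where a call was lost without 1 of these 3 libraries, or with the trend on length removed, this is given beside it. Smaller slopes were found for siArp4+CK666 replicate 1 (0.18), siArp4+CK666 replicate 3 (-0.18) and CK666 replicate 2 (0.17). Results for CK666 in knockdown cells rest on the siArp4+CK666 group. The part of RNA quality in any of these libraries was not tested.

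**Figure D1:**
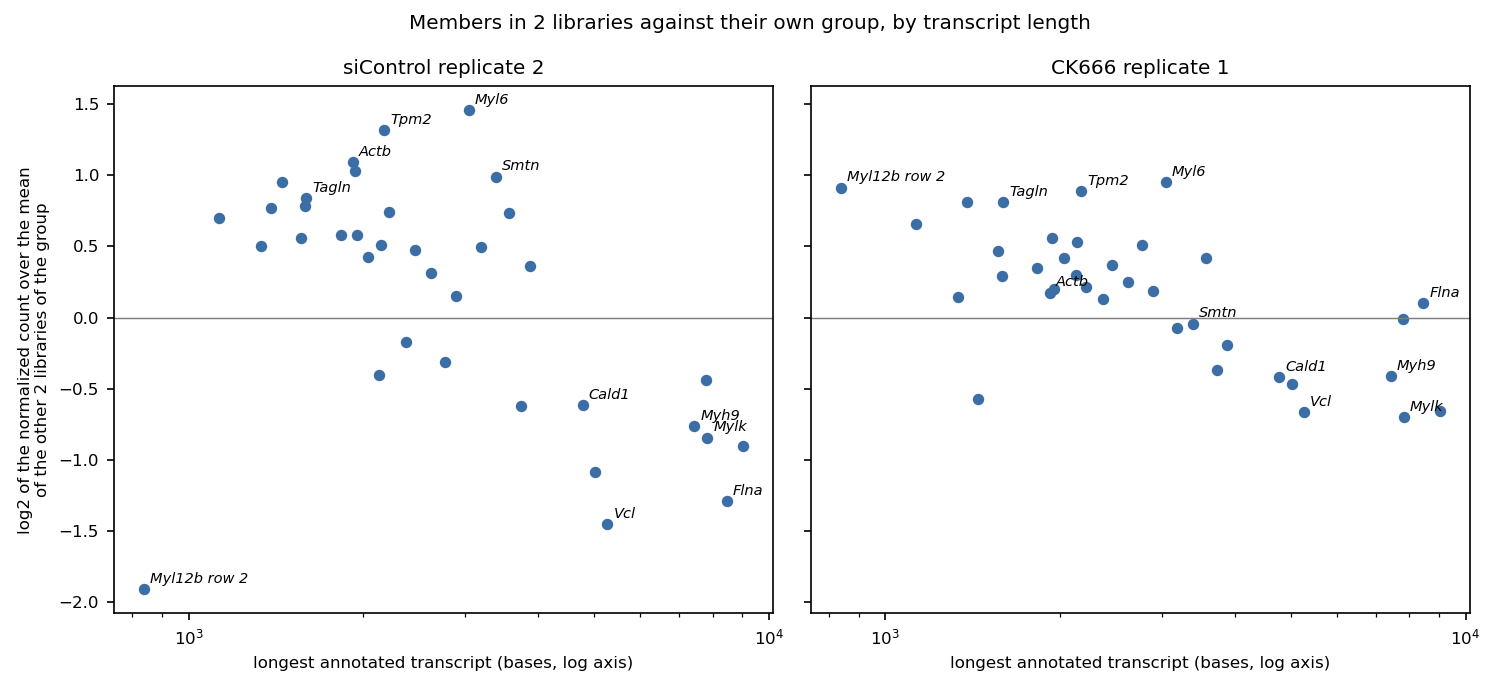
Deviation of each member (log2 of its normalized count over the mean of the other libraries of the group) in siControl replicate 2 and CK666 replicate 1 against the length of its longest annotated transcript in bases (log axis). Short transcripts such as those of Actb and Tpm2 lie above 0 and long ones such as those of Vcl and Cald1 below it, with medians of 0.57 and -0.62 in the siControl library.

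Most members were abundant. A mean of 1000 normalized counts or more in every group was found for 22 of the 41 rows, and 3 rows (Actc1, Myh11 and Synpo2) stayed under 10 in every group. Levels of different genes were compared on a scale per length (TPM, counts over the length of the union of exons, relative to their sum over all genes). On it Actg1 led the control libraries at 5610 ± 303 (SD, n = 3), followed by Actb at 4360 ± 147, Acta2 at 2590 ± 47.1 and Tpm4 at 1900 ± 32.8. Actg2 lay at 394 ± 31.1 on this scale and Acta1 at 3.41 ± 0.326. The order of the actins was the same when the longest transcript was used as the length. Reads of the cytoplasmic actins are shared among near-identical copies (31-base words found in no other gene made up 64.9% of Actb and 42.9% of Actg1), so the split between them is uncertain, whereas 98.5% of words were unique in Acta2 and in Actg2 and 95.6% in Acta1. Summed over the members, the level per length was 24100 in control, 14300 with CK666, 16500 with CytoD, 15600 with siControl, 13900 with siArp4 and 9300 with siArp4+CK666. The share of raw counts that fell in members gave the same order within each experiment (2.47% to 2.53% in control, 1.51% to 1.62% with CK666, 1.79% to 1.83% with CytoD, 1.66% to 1.99% with siControl, 1.7% to 1.78% with siArp4 and 1.16% to 1.24% with siArp4+CK666), with siControl and siArp4 overlapping.

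The makeup of the actin pool differed between groups. The 4 muscle actins took 23.1% ± 0.338 (SD, n = 3) of the per-length level of the 6 actins in control, 20.5% ± 1.32 with CK666 and 12.9% ± 0.196 with CytoD, and the CK666 libraries (19.4% to 21.9%) lay between the other groups without overlap. In the transfected cells the share was 15.5% ± 2.21 with siControl, 27.5% ± 0.921 with siArp4 and 9.97% ± 0.558 with siArp4+CK666, again without overlap. Acta2 made up from 84.4% (siControl) to 88.5% (siArp4+CK666) of the muscle actin level in the group means, and most of the rest was Actg2. The share of Acta2 in the members' summed level fell from 10.7% to 6.05% between control and CytoD, and from 9.99% to 4.09% between siArp4 and siArp4+CK666.

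**Figure D2:**
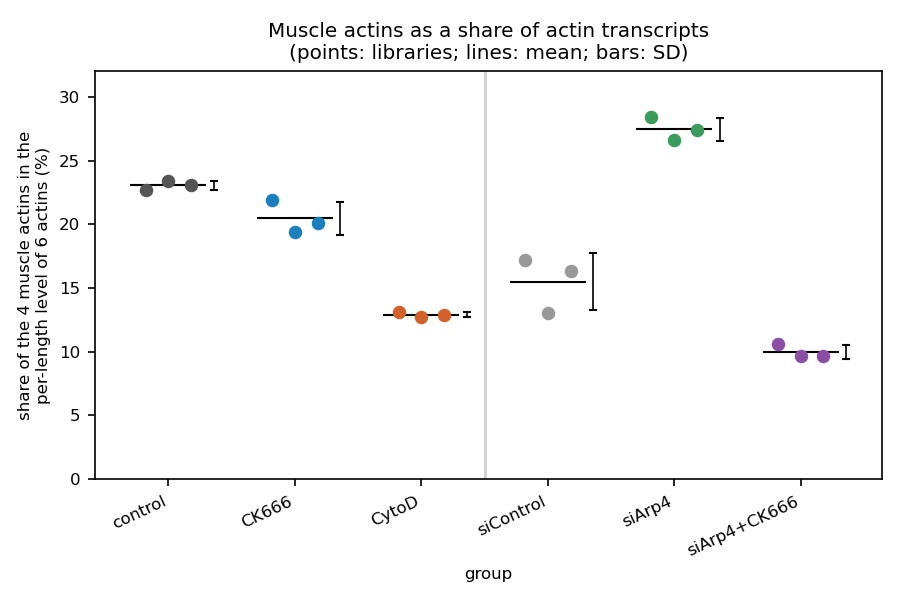
Share of the 4 muscle actins in the per-length level of all 6 actins, in percent, for each library (points) with the mean of each group (lines) and its SD (bars). The share is lowest with siArp4+CK666 (9.97%) and highest with siArp4 (27.5%), and no 2 groups of the same experiment overlap.

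Differences between groups are given as log2 fold changes ± their standard error (SE) from DESeq2, with Benjamini-Hochberg adjusted p over all genes tested. A gene was called where its fold change was over 1 on the log2 scale and its adjusted p was below 0.01, and a second count took the adjusted p alone. In what follows rose and fell are used of members that passed the adjusted p.

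CK666 lowered most of the contractile genes of untransfected cells and raised none. Of 39 members tested 28 fell and 0 rose by the adjusted p, against 14.7% of all 14597 genes tested that fell and 15.3% that rose. Of these 13 were called lower and 0 higher (background 6.06% and 4.89%). The median log2 fold change was -0.82 over the 38 members with a mean count of at least 10, beside 0.03 over all genes. The called members were Acta1, Myl9, Mylk, Cnn2, Tagln2, Smtn, Actn1, Vcl, Fhl1, Fhl2, Csrp1, Pdlim5 and Lmod1. Without CK666 replicate 1 the counts were 13 and 32, with Actb, Acta2 and Actg2 in place of Acta1, Smtn and Pdlim5 among the called. With the trend on length removed Actb and Actg2 joined the 13.

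CytoD also lowered most members, and 3 of the 4 muscle actins were among the calls. By the adjusted p 26 members fell and 2 (Myl12b and Mylk) rose out of 38 tested, where 16% of 13717 genes fell and 13.6% rose. Called lower were 8 members, Acta1, Acta2, Actg2, Myl9, Tagln, Tagln2, Fhl1 and Srf, and 0 were called higher (background 4.32% and 4.8%). The median over the 38 members with a mean count of at least 10 was -0.62, beside -0.00 over all genes. With all 18 libraries in 1 fit, 17 members fell and 1 rose by the adjusted p. This comparison and the last share the control libraries.

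Against siControl, the Arp4 knockdown split the group. With siArp4 6 members fell and 9 rose by the adjusted p among 40 tested (background 13.1% and 11.9% of 15415 genes). Called lower were 4, namely Actg1, Myl12b, Mylk and Csrp2, and called higher 6, namely Myl9, Cnn1, Cnn3, Cald1, Flna and Flnc (background 9.49% and 6.69%). The median over the 36 members with a mean count of at least 10 was 0.07 and that over all genes -0.06, and the share of members called lower was near the background. Without siControl replicate 1 the knockdown had 6 called lower and 5 higher, with Actb, Myl6, Fhl2 and Vcl gained and Mylk, Cnn1 and Cnn3 lost, and 11 fell and 10 rose by the adjusted p.

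With knockdown and CK666 together, 17 members were called lower than with siControl and 0 higher out of 40 (background 12.4% and 8.06% of 15415 genes), and 18 fell and 1, Actn4, rose by the adjusted p (background 15.8% and 14%). The called members were Actb, Actg1, Acta1, Acta2, Actg2, Myl6, Myl12b, Mylk, Tpm2, Tpm4, Tagln, Tagln2, Fhl1, Fhl2, Csrp1, Csrp2 and Lmod1. The median was -0.56 over the 36 members with a mean count of at least 10, beside -0.04 over all genes. None of the 6 members called higher with siArp4 alone passed the adjusted p in this comparison. Without siControl replicate 2 the number called was 13, with Actb, Actg1, Myl6 and Lmod1 no longer among them, and without siArp4+CK666 replicate 1 it was also 13. Without siControl replicate 1 it was 18 lower and 2 higher (Vcl and Flnc), with Myl12a and Cnn2 gained and Mylk lost on the lower side.

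CK666 added to knockdown cells gave 12 members called lower and 0 higher than with siArp4 alone out of 38 (background 4.12% and 1.63% of 14098 genes). These were Acta1, Acta2, Actg2, Myl9, Myl12b, Tpm2, Tagln, Tagln2, Fhl1, Fhl2, Csrp1 and Csrp2. By the adjusted p 17 fell and 0 rose (background 6.07% and 3.82%), with a median of -0.74 beside 0.02 over all genes. The count of 17 dropped to 11 without siArp4 replicate 1, without siArp4 replicate 2 and without siArp4+CK666 replicate 1, while the number called stayed between 10 and 12.

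**Figure D3:**
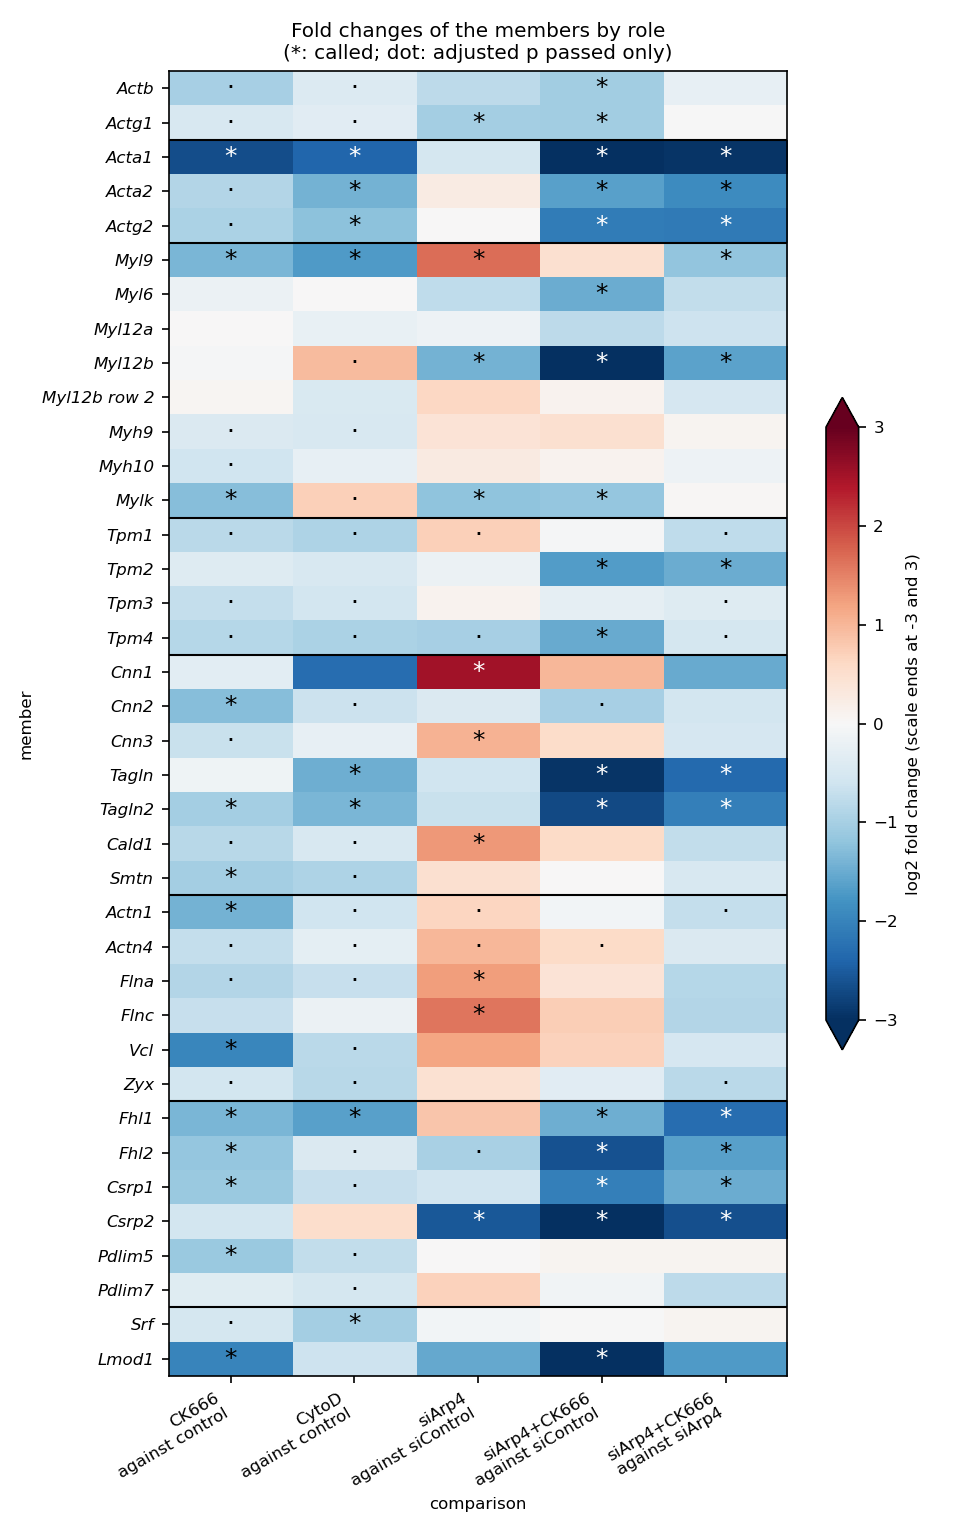
Log2 fold changes of the 38 members with a mean of at least 10 normalized counts in some group, in rows ordered by role, in 5 comparisons (columns). Blue is lower and red is higher, stars mark calls and dots the adjusted p alone. The CK666 and CytoD columns are blue in nearly every role, and the siArp4 column holds 4 stars in blue and 6 in red.

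The cytoplasmic actins are the building blocks of stress fibers and of the cell cortex. Actb, encoding beta-actin (chr5:142903115-142906754, minus strand), stood at 77360, 69970 and 73720 in the control libraries, 40020, 34170 and 36690 with CK666, and 53180, 54700 and 57830 with CytoD (normalized counts). Each treatment lay wholly below the control, with log2 fold changes of -0.995 ± 0.09 (adjusted p = 1.16e-25) for CK666, just short of a call, and -0.42 ± 0.09 (adjusted p = 3.84e-05) for CytoD, and CK666 lay below CytoD (-0.58 ± 0.09, adjusted p = 3.03e-09). In transfected cells Actb stood at 48290, 129900 and 73380 with siControl, 49320, 51740 and 45200 with siArp4, and 34160, 40520 and 48160 with siArp4+CK666. There siControl replicate 2 was far above the other libraries, and siArp4 overlapped with siControl (-0.78 ± 0.34, adjusted p = 0.056). With siArp4+CK666 Actb fell by 2.05-fold, a log2 fold change of -1.03 ± 0.34 (adjusted p = 0.00725). The value was -0.57 (adjusted p = 0.0311) without siControl replicate 2 and -0.70 (adjusted p = 0.0033) with the trend on length removed. The call was lost in 7 of 9 fits that each left out 1 library, those without siControl replicate 2, siControl replicate 3, siArp4 replicate 1, siArp4 replicate 2, siArp4 replicate 3, siArp4+CK666 replicate 1 or siArp4+CK666 replicate 2. Actg1, encoding gamma-actin, stood at 100200, 87050 and 95050 in the control libraries, 74070, 64070 and 64620 with CK666, and 71700, 74930 and 78060 with CytoD. It fell less than Actb with CK666, at -0.48 ± 0.10 (adjusted p = 8e-06), and fell with CytoD at -0.33 ± 0.10 (adjusted p = 0.00311). In the second experiment its levels were 50670, 91530 and 71610 with siControl, 36140, 36440 and 32730 with siArp4, and 30410, 33990 and 40000 with siArp4+CK666. Both knockdown groups lay wholly below siControl and overlapped with each other, with -1.02 ± 0.24 (adjusted p = 0.000135) for siArp4 and -1.03 ± 0.24 (adjusted p = 8.59e-05) for siArp4+CK666, and CK666 added -0.01 ± 0.24 (adjusted p = 0.988). Without siControl replicate 2 both differences kept the adjusted p but were under the fold minimum, at -0.81 (adjusted p = 0.000385) and -0.82 (adjusted p = 0.000272). With the trend on length removed they were -0.82 (adjusted p = 1.36e-13) and -0.74 (adjusted p = 2.34e-11), again under it. The calls were also lost without siArp4 replicate 3 and siArp4+CK666 replicate 1 respectively.

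**Figure D4:**
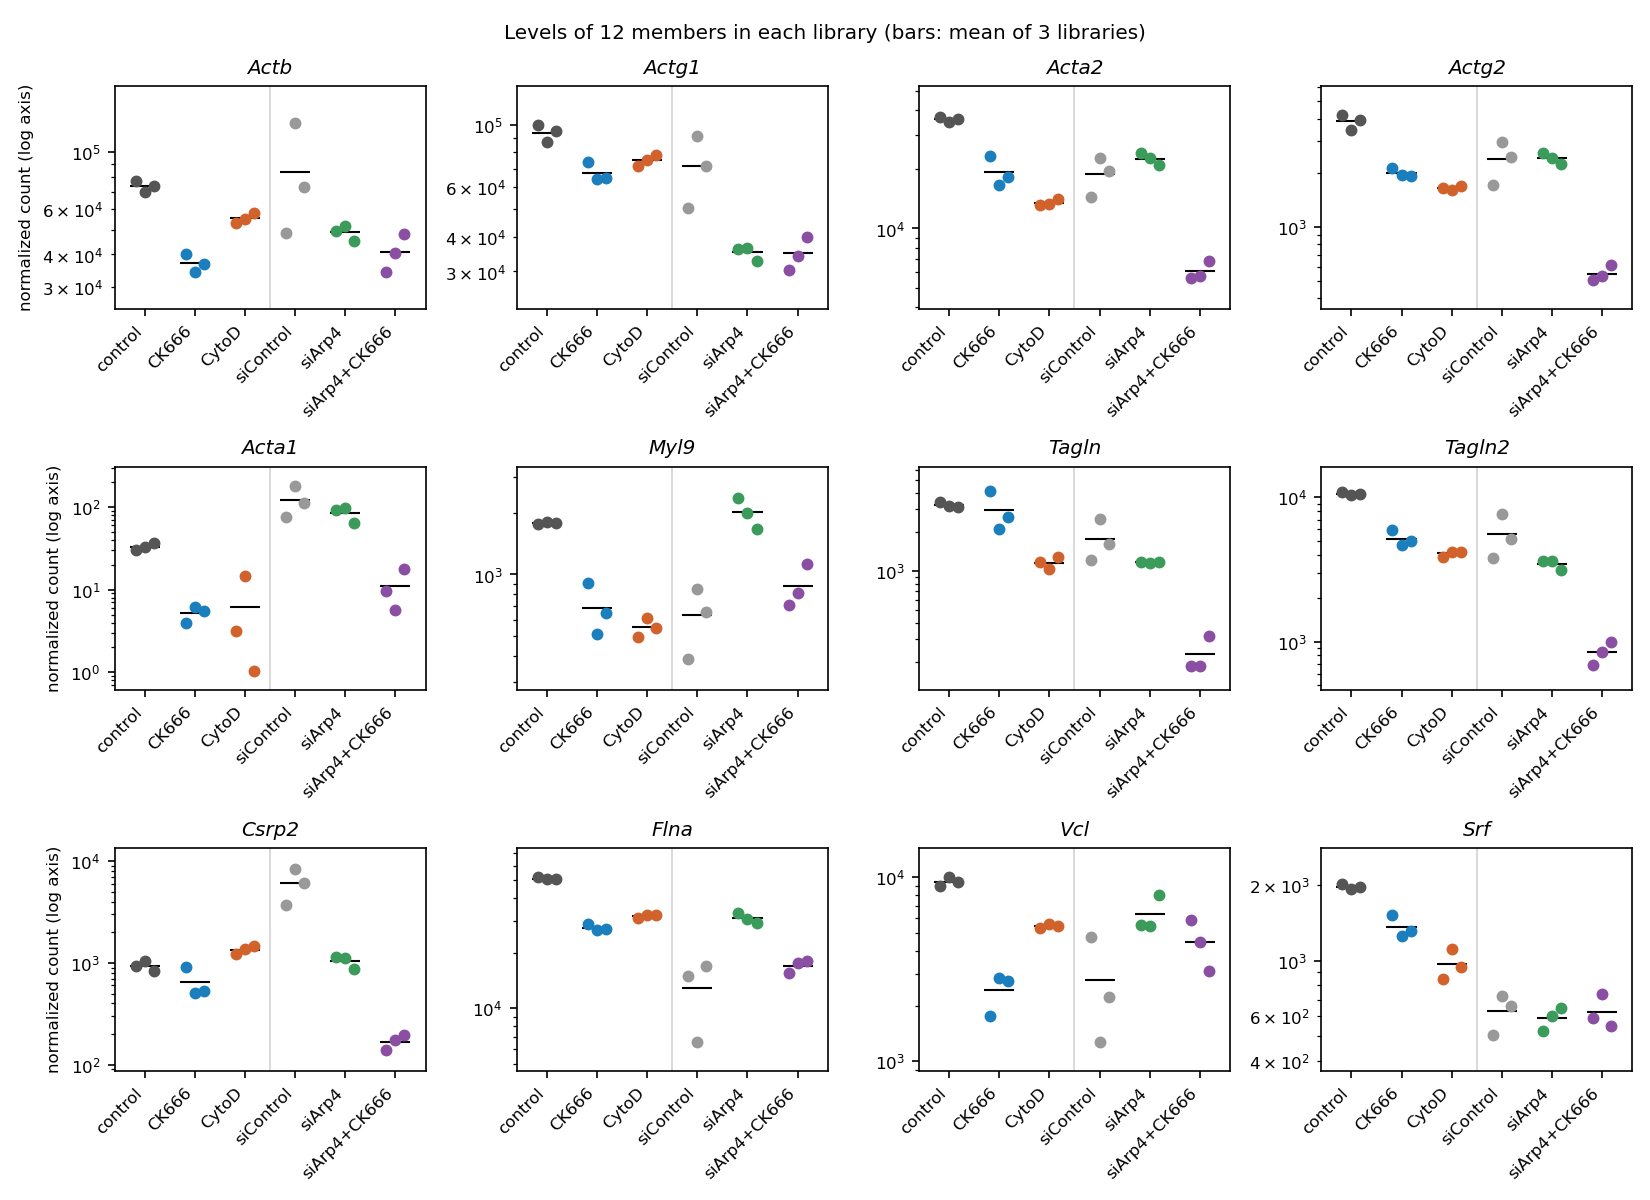
Normalized counts (log axis) of 12 members in each of the 18 libraries, as points, with the mean of each group as a line; levels can be compared within an experiment, to each side of the grey line. Acta2, Actg2, Tagln, Tagln2 and Csrp2 are lowest with siArp4+CK666, and Flna and Myl9 lie higher with siArp4 than with siControl.

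The muscle actins Acta1, Acta2 and Actg2 fell more than the cytoplasmic actins with CytoD and with CK666 in knockdown cells. This order did not hold in every comparison. With CK666 in untransfected cells Actb (-0.995) fell more than Acta2 and Actg2. With siArp4 alone Actg1 was the only actin that passed the adjusted p. Acta2, encoding the smooth muscle alpha-actin of contractile stromal cells, stood at 37020, 34540 and 36040 in the control libraries, 23390, 16680 and 18280 with CK666, and 13180, 13270 and 14130 with CytoD. CytoD lowered it by 2.65-fold (-1.41 ± 0.13, adjusted p = 8.58e-26) and CK666 by 1.84-fold (-0.88 ± 0.13, adjusted p = 1.12e-10), and the CK666 libraries lay wholly above those with CytoD (0.52 ± 0.13, adjusted p = 0.000241). In transfected cells it stood at 14380, 22760 and 19560 with siControl, 24120, 22670 and 20980 with siArp4, and 5582, 5772 and 6869 with siArp4+CK666. The knockdown alone overlapped with siControl (0.26 ± 0.21, adjusted p = 0.355). CK666 in knockdown cells gave a 3.72-fold fall against siArp4 (-1.90 ± 0.21, adjusted p = 6.6e-18) and a 3.11-fold fall against siControl (-1.64 ± 0.21, adjusted p = 4.57e-14). Actg2, the smooth muscle gamma-actin, stood at 4198, 3473 and 3945 in the control libraries, 2123, 1939 and 1907 with CK666, and 1643, 1600 and 1687 with CytoD. It followed the same order, with -1.24 ± 0.10 (adjusted p = 9.33e-31) for CytoD and -0.96 ± 0.10 (adjusted p = 4.16e-19) for CK666. With siRNA its levels were 1711, 2951 and 2456 with siControl, 2566, 2416 and 2223 with siArp4, and 505, 534 and 610.2 with siArp4+CK666. Again siArp4 overlapped with siControl (0.02 ± 0.23, adjusted p = 0.968) and siArp4+CK666 lay far below both, at -2.13 ± 0.23 (adjusted p = 1.7e-18) against siArp4 and -2.11 ± 0.23 (adjusted p = 6.88e-19) against siControl. Acta1, the skeletal muscle alpha-actin, was a low-count gene at 29.99, 33.1 and 36.2 in the control libraries, 3.93, 6.12 and 5.58 with CK666, and 3.19, 14.5 and 1.03 with CytoD. Both treatments lay wholly below the control, at -2.67 ± 0.75 (adjusted p = 0.00153) for CK666 and -2.39 ± 0.73 (adjusted p = 0.00436) for CytoD. Each call was lost with edgeR (adjusted p = 0.0111 and 0.0182) and in 5 of 9 fits that left out 1 library. The CK666 call was lost without control replicate 1, control replicate 2, control replicate 3, CK666 replicate 1 or CK666 replicate 3. The CytoD call was lost without control replicate 1, control replicate 2, control replicate 3, CytoD replicate 1 or CytoD replicate 3. In transfected cells Acta1 stood at 75.4, 181 and 112 with siControl, 92.6, 97.2 and 64.1 with siArp4, and 9.52, 5.72 and 17.9 with siArp4+CK666. Its falls with added CK666, -2.95 ± 0.50 (adjusted p = 1.45e-07) against siArp4 and -3.48 ± 0.50 (adjusted p = 4.24e-11) against siControl, kept their calls in all of those fits. The cardiac actin gene Actc1 did not exceed 6.29 normalized counts in any library, and its changes were not readable at this depth.

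Nonmuscle myosin II pulls on actin filaments and is switched on when its light chain is phosphorylated. Myl9, a regulatory light chain of contractile cells, stood at 1770, 1810 and 1785 in the control libraries, 909.7, 509.7 and 646 with CK666, and 497, 613 and 546 with CytoD. It was lower in every treated library than in any control, at -1.38 ± 0.19 (adjusted p = 8.63e-12) with CK666 and -1.70 ± 0.19 (adjusted p = 2.84e-17) with CytoD, and these groups overlapped with each other. In transfected cells the levels were 389, 850.1 and 656 with siControl, 2350, 1999 and 1673 with siArp4, and 708, 812 and 1129 with siArp4+CK666. The knockdown raised Myl9 by 3.18-fold (1.67 ± 0.32, adjusted p = 1.66e-06) without overlap, and added CK666 lowered it again (-1.19 ± 0.32, adjusted p = 0.00245) to a level that overlapped with siControl (0.49 ± 0.32, adjusted p = 0.228). The last fall was lost without siArp4 replicate 1, siArp4 replicate 2, siArp4+CK666 replicate 1 or siArp4+CK666 replicate 2 (log2 -1.40 to -1.04, adjusted p 5.6e-06 to 0.0545) and with edgeR (adjusted p = 0.0362). Mylk, the kinase that phosphorylates this chain, moved apart from most members: it stood at 1129, 1467 and 1502 in the control libraries, 398, 767 and 524 with CK666, and 2155, 2324 and 2220 with CytoD. It fell with CK666 (-1.28 ± 0.21, adjusted p = 1.76e-08) and rose with CytoD (0.71 ± 0.21, adjusted p = 0.00293), with no overlap between any of the groups. CK666 lay 3.97-fold below CytoD (-1.99 ± 0.21, adjusted p = 1.59e-19). With siRNA its levels were 1989, 850.1 and 1063 with siControl, 520.5, 397 and 784 with siArp4, and 728, 582 and 438 with siArp4+CK666, where siControl replicate 1 was the highest. It was called lower with siArp4 (-1.197 ± 0.38, adjusted p = 0.00726) and with siArp4+CK666 (-1.16 ± 0.38, adjusted p = 0.0084), and each call was lost with edgeR (adjusted p = 0.0339 and 0.0327) and in 5 of 9 fits that left out 1 library. The siArp4 call was lost without siControl replicate 1, siControl replicate 3, siArp4 replicate 1, siArp4 replicate 2 or siArp4+CK666 replicate 2 (log2 -1.50 to -0.76). The siArp4+CK666 call was lost without siControl replicate 1, siControl replicate 3, siArp4 replicate 1, siArp4+CK666 replicate 2 or siArp4+CK666 replicate 3 (log2 -1.39 to -0.71). CK666 added to the knockdown left Mylk at 0.04 ± 0.38 (adjusted p = 0.978).

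Among the other myosin genes, Myh9, the main nonmuscle heavy chain, stood at 38800, 45310 and 42670 in the control libraries, 25590, 33890 and 34140 with CK666, and 29920, 30060 and 30160 with CytoD. It fell with both compounds, at -0.44 ± 0.13 (adjusted p = 0.00232) for CK666 and -0.49 ± 0.13 (adjusted p = 0.000522) for CytoD. In transfected cells it stood at 19540, 9506 and 12700 with siControl, 17520, 17750 and 20050 with siArp4, and 24140, 18890 and 15210 with siArp4+CK666, and the groups overlapped with no difference past the test. Myh10, a second nonmuscle heavy chain, ran from 1888 to 3028 in the first experiment and fell with CK666 (-0.59 ± 0.08, adjusted p = 1.66e-11). Myl6, the essential light chain, ran from 5521 to 12010 in the first experiment and was very spread with siRNA, at 18150, 69320 and 32270 with siControl, 25040, 25110 and 21010 with siArp4, and 10930, 13570 and 18390 with siArp4+CK666. It was called lower with siArp4+CK666 than with siControl (-1.48 ± 0.42, adjusted p = 0.00206) although the groups overlapped. The call was lost without siControl replicate 2, siArp4+CK666 replicate 1 or siArp4+CK666 replicate 2 (log2 -1.83 to -0.82) and with edgeR (adjusted p = 0.0235). The genes Myl12a and Myl12b encode 2 further regulatory light chains and lie side by side on chromosome 17 with an annotated read-through gene, also named Myl12b, that shares all but 3.6% of its 31-base words with other genes. Split over these rows, Myl12b itself stood at 676, 979.6 and 746 in the control libraries, 991, 838 and 534 with CK666, and 1513, 1467 and 1642 with CytoD. After transfection Myl12b stood at 2294, 3838 and 3108 with siControl, 1183, 1153 and 1105 with siArp4, and 329, 344 and 467 with siArp4+CK666. It rose with CytoD (0.94 ± 0.22, adjusted p = 7.93e-05), fell with siArp4 (-1.42 ± 0.24, adjusted p = 2.97e-08) and fell further with siArp4+CK666 (-3.02 ± 0.24, adjusted p = 2.51e-34), without overlap, whereas Myl12a and the read-through row passed no test. The split of reads among the 3 rows is uncertain, and whether it bears on the Myl12b calls was not tested. The sum of the 3 rows, most of it Myl12a, passed in no comparison, with -0.07 (adjusted p = 0.872) for siArp4 and -0.69 (adjusted p = 0.0289) for siArp4+CK666 against siControl, and is not a test of Myl12b alone.

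Tropomyosins lie along the filament and set which myosins and crosslinkers can bind it. Tpm1, a tropomyosin gene of stress fibers, stood at 13330, 12920 and 12670 in the control libraries, 8053, 6773 and 7364 with CK666, and 6364, 6920 and 7315 with CytoD. It fell with both compounds, at -0.81 ± 0.10 (adjusted p = 3.19e-15) for CK666 and -0.92 ± 0.10 (adjusted p = 3.31e-19) for CytoD. In transfected cells Tpm1 stood at 10010, 12370 and 12290 with siControl, 19340, 19290 and 18630 with siArp4, and 10150, 11240 and 12460 with siArp4+CK666. There it rose with siArp4 (0.72 ± 0.15, adjusted p = 1.27e-05) and fell with added CK666 (-0.76 ± 0.15, adjusted p = 1.07e-05 against siArp4), where it overlapped with siControl. Tpm4, a tropomyosin of nonmuscle cells, stood at 26920, 26200 and 25920 in the control libraries, 16750, 13280 and 13930 with CK666, and 13670, 13540 and 13420 with CytoD. With siRNA it stood at 13950, 10380 and 13500 with siControl, 6515, 6182 and 6306 with siArp4, and 4391, 4508 and 4370 with siArp4+CK666. It fell in every comparison with a control, at -0.85 ± 0.10 (adjusted p = 3.84e-15) with CK666, -0.96 ± 0.10 (adjusted p = 3.49e-19) with CytoD, -0.99 ± 0.15 (adjusted p = 1.54e-09) with siArp4 and -1.51 ± 0.15 (adjusted p = 2.13e-21) with siArp4+CK666. None of these pairs of groups overlapped. Only the last was over the fold minimum, and without siControl replicate 2 the siArp4 difference was also called, at -1.12 (adjusted p = 1.16e-26). Tpm2, the beta-tropomyosin, stood at 3931, 4025 and 4005 in the control libraries, 4424, 2185 and 2592 with CK666, and 2846, 2753 and 2903 with CytoD. Control and CK666 overlapped (-0.38 ± 0.21, adjusted p = 0.153), since CK666 replicate 1 was above every control, and the difference was -0.74 (adjusted p = 6.31e-18) without that library. In transfected cells Tpm2 stood at 3562, 12650 and 6577 with siControl, 7191, 6928 and 5998 with siArp4, and 1957, 2218 and 2974 with siArp4+CK666, with siControl replicate 2 again apart. It fell with siArp4+CK666, at -1.67 ± 0.40 (adjusted p = 0.000163) against siControl and -1.49 ± 0.40 (adjusted p = 0.00252) against siArp4. Both calls were lost with edgeR (adjusted p = 0.0101 and 0.0469), and the second without siArp4 replicate 1, siArp4 replicate 2, siArp4 replicate 3, siArp4+CK666 replicate 1 or siArp4+CK666 replicate 2 (adjusted p 1.53e-07 to 0.034). Tpm3 fell with CK666 (-0.72 ± 0.08, adjusted p = 2.4e-16), with CytoD (-0.56 ± 0.08, adjusted p = 3.09e-10) and with CK666 in knockdown cells (-0.39 ± 0.11, adjusted p = 0.00669), by less than the fold minimum each time. Reads of Tpm3 and Tpm4 are shared in part with processed copies (80.4% and 83.5% of words unique).

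Transgelins and calponins bind along actin filaments and are classic targets of SRF. Tagln, encoding the smooth muscle protein SM22, stood at 3383, 3179 and 3115 in the control libraries, 4139, 2098 and 2621 with CK666, and 1170, 1036 and 1285 with CytoD. It overlapped between control and CK666 (-0.13 ± 0.21, adjusted p = 0.674) and fell by 2.77-fold with CytoD (-1.47 ± 0.21, adjusted p = 7.3e-11), so that CK666 lay above CytoD (1.34 ± 0.21, adjusted p = 2.92e-09). Without CK666 replicate 1, the highest of the CK666 libraries, the CK666 difference was -0.45 (adjusted p = 0.000342). In transfected cells Tagln stood at 1209, 2516 and 1608 with siControl, 1175, 1147 and 1176 with siArp4, and 187, 187 and 318 with siArp4+CK666. The knockdown alone gave -0.61 ± 0.32 (adjusted p = 0.126), and with CK666 Tagln fell by 5.05-fold against siArp4 (-2.34 ± 0.32, adjusted p = 2.22e-11) and 7.7-fold against siControl (-2.95 ± 0.32, adjusted p = 1.26e-18). The libraries were unstranded and Tagln overlaps Pcsk7, a gene on the opposite strand with a mean of 488 counts, so part of the lowest Tagln levels may belong to it. Tagln2, the transgelin of nonmuscle cells, stood at 10850, 10360 and 10440 in the control libraries, 5893, 4644 and 4970 with CK666, and 3874, 4162 and 4189 with CytoD. Every group differed from the others without overlap, at -1.03 ± 0.11 (adjusted p = 2.59e-20) for CK666 and -1.37 ± 0.11 (adjusted p = 3.25e-35) for CytoD. The CK666 call was lost without CK666 replicate 2 or CK666 replicate 3 (log2 -1.13 to -0.95). In the siRNA experiment its levels were 3781, 7658 and 5127 with siControl, 3639, 3619 and 3117 with siArp4, and 689, 844 and 985 with siArp4+CK666. With siArp4+CK666 it fell by 4.12-fold against siArp4 (-2.04 ± 0.28, adjusted p = 1.78e-11) and also against siControl (-2.72 ± 0.28, adjusted p = 7.43e-21).

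Cnn2, a calponin of nonmuscle cells, stood at 11260, 11090 and 10560 in the control libraries, 5296, 3795 and 4398 with CK666, and 6936, 6688 and 7595 with CytoD. CK666 lowered it (-1.29 ± 0.13, adjusted p = 8.2e-22), and CytoD less (-0.63 ± 0.13, adjusted p = 6.79e-06), and the gap between the compounds was -0.65 ± 0.13 (adjusted p = 3.06e-06). In transfected cells it stood at 5988, 9460 and 7639 with siControl, 6072, 5921 and 5191 with siArp4, and 3533, 3763 and 4357 with siArp4+CK666 and fell with siArp4+CK666 against siControl (-0.99 ± 0.21, adjusted p = 1.31e-05). Cnn3, the acidic calponin, ran from 3182 to 5626 in the first experiment and fell with CK666 (-0.68 ± 0.09, adjusted p = 1.69e-12). With siRNA it stood at 2585, 4865 and 3225 with siControl, 7325, 7339 and 7241 with siArp4, and 5023, 5496 and 5023 with siArp4+CK666. It was higher in every knockdown library than in any siControl library and was called with siArp4 (1.04 ± 0.24, adjusted p = 0.000102), a call lost without siControl replicate 1 or siControl replicate 3 (log2 0.85 to 1.32). Cnn1, the smooth muscle calponin, was a low-count gene whose mean stayed under 100 in every group, and it stood at 3.35, 2.52 and 3.74 with siControl and 17.7, 18.4 and 20.04 with siArp4. Its rise (2.53 ± 0.74, adjusted p = 0.00304) was lost in 6 of 9 fits that left out 1 library, 1 for each library of the groups compared (adjusted p 0.00283 to 0.0258). Cald1, the caldesmon gene, whose protein restrains actomyosin, stood at 24810, 25770 and 25170 in the control libraries, 11620, 16280 and 14750 with CK666, and 18680, 17820 and 17590 with CytoD. Both compounds lowered it, at -0.83 ± 0.12 (adjusted p = 4.59e-10) for CK666 and -0.49 ± 0.12 (adjusted p = 0.00051) for CytoD. After transfection Cald1 stood at 15490, 8051 and 9183 with siControl, 25130, 24720 and 30940 with siArp4, and 19690, 16020 and 12650 with siArp4+CK666. There it rose with siArp4 (1.304 ± 0.29, adjusted p = 5.87e-05) without overlap, and overlapped with siControl once CK666 was added (0.56 ± 0.29, adjusted p = 0.112). Smtn, the smoothelin gene, stood at 1797, 1776 and 1841 in the control libraries, 874, 853 and 948 with CK666, and 889.6, 979 and 999.5 with CytoD. It fell with CK666 (-1.02 ± 0.10, adjusted p = 1.54e-24) and with CytoD (-0.92 ± 0.10, adjusted p = 5.11e-20), and passed no test in the second experiment. Its CK666 value was -0.999 (adjusted p = 1.23e-24) without CK666 replicate 1, under the fold minimum. The same held without CK666 replicate 2 (log2 -1.06 to -0.98 over the 9 fits).

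Crosslinkers and anchors tie filaments to each other and to integrins. Vcl, encoding vinculin of focal adhesions, had the largest fall with CK666 among the members with a mean of at least 1000 counts in every group. It stood at 8958, 10020 and 9458 in the control libraries, 1757, 2850 and 2723 with CK666, and 5276, 5558 and 5437 with CytoD. The change was 3.88-fold for CK666 (-1.96 ± 0.17, adjusted p = 2.43e-30) and 1.75-fold for CytoD (-0.81 ± 0.17, adjusted p = 8.01e-06), with no overlap of any groups. CK666 lay below CytoD (-1.15 ± 0.17, adjusted p = 5.37e-11), and without CK666 replicate 1 this was -0.96 (adjusted p = 1.23e-42), under the fold minimum. In transfected cells Vcl stood at 4758, 1280 and 2243 with siControl, 5514, 5412 and 8034 with siArp4, and 5882, 4442 and 3085 with siArp4+CK666. Its siArp4 libraries all lay above those with siControl, but the difference did not pass (1.195 ± 0.44, adjusted p = 0.0239), and with the trend on length removed it did (1.201, adjusted p = 0.00104). Vcl overlaps Ap3m1 on the opposite strand, which had a mean of 3492 counts. Actn1, an alpha-actinin that bundles stress fibers, stood at 17810, 18310 and 19360 in the control libraries, 5814, 8030 and 6996 with CK666, and 12380, 12250 and 11770 with CytoD. CK666 lowered it (-1.41 ± 0.12, adjusted p = 4.85e-29), CytoD less (-0.61 ± 0.12, adjusted p = 5.06e-06), and the compounds differed (-0.81 ± 0.12, adjusted p = 5.75e-10). With siRNA it stood at 11500, 7222 and 10780 with siControl, 16310, 15400 and 14570 with siArp4, and 9560, 8646 and 9806 with siArp4+CK666. There it rose with siArp4 (0.65 ± 0.20, adjusted p = 0.0061) and fell from there with added CK666 (-0.72 ± 0.20, adjusted p = 0.00438). Its paralogue Actn4 fell with CK666 (-0.73 ± 0.10, adjusted p = 7.05e-12). It rose with siArp4 (0.999 ± 0.15, adjusted p = 2.32e-09) and with siArp4+CK666 (0.56 ± 0.15, adjusted p = 0.00124), and it was the only member that rose in the last comparison. Without siControl replicate 2 the siArp4 rise of Actn4 was called (1.12, adjusted p = 3.3e-17).

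Flna, encoding filamin A, which joins crossing filaments, stood at 52010, 50550 and 50590 in the control libraries, 28930, 26930 and 26990 with CK666, and 31070, 32370 and 32160 with CytoD. Both compounds lowered it without overlap, at -0.89 ± 0.07 (adjusted p = 1.87e-37) for CK666 and -0.68 ± 0.07 (adjusted p = 3.47e-22) for CytoD. In transfected cells it stood at 15100, 6574 and 17050 with siControl, 33190, 30650 and 29200 with siArp4, and 15670, 17650 and 18050 with siArp4+CK666. The knockdown raised it by 2.4-fold (1.27 ± 0.32, adjusted p = 0.0005), a value that was 0.94 (adjusted p = 5.23e-10) without siControl replicate 2, the lowest library, and that did not pass with edgeR (adjusted p = 0.0141). With siArp4+CK666 Flna overlapped with siControl (0.41 ± 0.32, adjusted p = 0.328). Flnc, the muscle filamin, was far less abundant, at 142, 59.1 and 78.5 with siControl, 257, 279 and 327 with siArp4, and 209, 156 and 105 with siArp4+CK666. It rose with siArp4 (1.61 ± 0.38, adjusted p = 0.000131), and it ran from 102 to 280.4 in the first experiment with no difference past the test. Zyx, encoding zyxin of adhesions and stress fibers, fell with CK666 (-0.55 ± 0.07, adjusted p = 3.44e-13), more with CytoD (-0.82 ± 0.07, adjusted p = 1.05e-28), and with CK666 in knockdown cells (-0.80 ± 0.19, adjusted p = 0.0005).

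The LIM proteins link actin structures to signaling and transcription. Fhl1, a muscle LIM protein, stood at 458, 395 and 445 in the control libraries, 208, 128 and 164 with CK666, and 129.7, 144 and 145 with CytoD. It fell with both compounds, at -1.37 ± 0.19 (adjusted p = 1.78e-11) for CK666 and -1.63 ± 0.20 (adjusted p = 2.18e-15) for CytoD. In transfected cells the levels were 92.2, 70.4 and 83.1 with siControl, 139.8, 113 and 182 with siArp4, and 15.9, 45.8 and 27.4 with siArp4+CK666. All siArp4+CK666 libraries lay below the others, at -2.28 ± 0.39 (adjusted p = 1.86e-07) against siArp4 and -1.46 ± 0.40 (adjusted p = 0.000998) against siControl. The second call was lost without siArp4+CK666 replicate 1 or siArp4+CK666 replicate 3 (adjusted p 3.99e-05 to 0.0114) and with edgeR (adjusted p = 0.0135). Fhl2, a coactivator that shuttles from adhesions to the nucleus, stood at 3726, 3545 and 3539 in the control libraries, 1972, 1455 and 1402 with CK666, and 2523, 2692 and 2849 with CytoD. CK666 lowered it (-1.16 ± 0.14, adjusted p = 1.83e-15), and CytoD less (-0.42 ± 0.14, adjusted p = 0.0082), with a gap between them of -0.74 ± 0.14 (adjusted p = 9.25e-07). With siRNA it stood at 3689, 6843 and 5583 with siControl, 2788, 2891 and 2468 with siArp4, and 696, 922 and 995 with siArp4+CK666. It stepped down from siControl to siArp4 (-0.98 ± 0.26, adjusted p = 0.000852) and from siArp4 to siArp4+CK666 (-1.64 ± 0.26, adjusted p = 1.42e-08) without overlap. Csrp1, a LIM protein of the actin cytoskeleton, stood at 3613, 3400 and 3621 in the control libraries, 1900, 1455 and 1529 with CK666, and 2080, 2166 and 2301 with CytoD. Both CK666 (-1.12 ± 0.12, adjusted p = 2.65e-19) and CytoD (-0.70 ± 0.12, adjusted p = 5.25e-08) lowered it. In the second experiment Csrp1 stood at 2577, 4493 and 3420 with siControl, 2482, 2370 and 2235 with siArp4, and 739, 825 and 949.5 with siArp4+CK666. Every siArp4+CK666 library lay below every siArp4 library (-1.50 ± 0.23, adjusted p = 5.2e-09).

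Csrp2, a paralogue of Csrp1, gave the largest change of any member that passed the test. In untransfected cells it stood at 942, 1034 and 838 in the control libraries, 902, 505 and 524 with CK666, and 1231, 1355 and 1461 with CytoD. The CK666 libraries overlapped with control (-0.54 ± 0.21, adjusted p = 0.0297), and the CytoD libraries lay above it (0.52 ± 0.21, adjusted p = 0.036) without passing the test. CK666 lay below CytoD (-1.07 ± 0.21, adjusted p = 3.38e-06), a call lost without CK666 replicate 2 or CK666 replicate 3 (log2 -1.39 to -0.91). Without CK666 replicate 1 the CK666 difference passed, at -0.86 (adjusted p = 3.53e-11). In transfected cells it stood at 3743, 8442 and 6162 with siControl, 1145, 1113 and 876 with siArp4, and 138, 174 and 194 with siArp4+CK666. Every siArp4 library lay below every siControl library, a 5.85-fold difference (-2.55 ± 0.30, adjusted p = 2.36e-15). Added CK666 lowered it by a further 6.19-fold (-2.63 ± 0.31, adjusted p = 3.31e-15), which made 36.2-fold against siControl (-5.18 ± 0.31, adjusted p = 5.96e-60). Leaving out any library kept these calls, and without siControl replicate 2 the knockdown change was -2.25 (adjusted p = 1.86e-16). Pdlim5, a PDZ-LIM protein that binds alpha-actinin, stood at 3017, 3240 and 3216 in the control libraries, 1160, 1672 and 1532 with CK666, and 1935, 1914 and 1864 with CytoD. It fell with CK666 (-1.12 ± 0.14, adjusted p = 4.57e-15) and CytoD (-0.73 ± 0.14, adjusted p = 6.78e-07), and its CK666 value without CK666 replicate 1 was -0.98 (adjusted p = 5.09e-36). In transfected cells, at 1976, 763 and 1257 with siControl, 1310, 1182 and 1533 with siArp4, and 1678, 1340 and 1245 with siArp4+CK666, its groups overlapped in every comparison. Pdlim7 fell with CytoD (-0.53 ± 0.15, adjusted p = 0.00202) and passed no other test.

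Srf, the transcription factor, stood at 2012, 1918 and 1962 in the control libraries, 1521, 1252 and 1307 with CK666, and 845, 1108 and 944 with CytoD. It fell by 2.03-fold with CytoD (-1.02 ± 0.13, adjusted p = 9.12e-14) and by 1.44-fold with CK666 (-0.53 ± 0.13, adjusted p = 0.000225), and CK666 lay above CytoD without overlap (0.49 ± 0.13, adjusted p = 0.000715). The CytoD call was lost without CytoD replicate 1 (log2 -1.14 to -0.94 over the 9 fits) and with the trend on length removed (-0.997, adjusted p = 6.13e-20). In transfected cells Srf stood at 507, 726 and 660.3 with siControl, 524, 605 and 650.2 with siArp4, and 590, 738 and 549 with siArp4+CK666. All groups overlapped, with -0.09 ± 0.21 (adjusted p = 0.795) for siArp4 and 0.08 ± 0.21 (adjusted p = 0.901) for added CK666. Lmod1, a leiomodin that starts muscle filaments, was a low-count gene at 42.6, 71.1 and 44.5 in the control libraries, 15.7, 7.14 and 16.7 with CK666, and 28.7, 42.6 and 30.9 with CytoD. It fell with CK666 (-1.99 ± 0.45, adjusted p = 5.43e-05). With siControl it stood at 15.1, 18.9 and 14 and with siArp4+CK666 at 2.12, 1.91 and 1.05, a called difference (-3.23 ± 0.91, adjusted p = 0.00165). The call was lost without siControl replicate 2, siArp4+CK666 replicate 2 or siArp4+CK666 replicate 3 (adjusted p 0.0016 to 0.0131). Synpo2 and Myh11, which mark smooth muscle, passed no test.

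CK666 and CytoD were also compared with each other. By the adjusted p 14 of 40 members were lower with CK666 than with CytoD and 5 higher, against 14.9% and 16.9% of 15038 genes. Called lower were 4 (Mylk, Vcl, Csrp2 and Lmod1) and higher 1 (Tagln), where the background was 6.74% and 5.08%, so the calls were near the background. The 5 members that were higher with CK666 were Acta2, Tagln, Tagln2, Zyx and Srf, and those lower included Actb, Cnn2, Actn1, Flna, Fhl2 and Csrp1, whose values stand above. With all 18 libraries in 1 fit, 10 members were lower and 1 higher by the adjusted p. The Lmod1 call (-1.36 ± 0.46, adjusted p = 0.00914) was lost whenever any 1 of the 9 libraries was left out (adjusted p 0.0138 to 0.0767) and with edgeR (adjusted p = 0.0204). The number called dropped from 5 to 3 without CK666 replicate 3. Without CK666 replicate 1 it was 5, with Myl12b and Cnn1 in place of Vcl and Lmod1.

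The effect of CK666 was then set side by side in untransfected cells (CK666 against control) and in knockdown cells (siArp4+CK666 against siArp4), which share no library. Called lower in both were 6 members, Acta1, Myl9, Tagln2, Fhl1, Fhl2 and Csrp1, which are 46.2% of the 13 called in untransfected cells and 50% of the 12 called in knockdown cells. Over all genes 291 were called lower in both, 32.9% of the 885 called in untransfected cells and 50.1% of the 581 called in knockdown cells. Another 6 (Cnn2, Lmod1, Mylk, Pdlim5, Smtn and Vcl) were called in untransfected cells and did not pass the adjusted p in knockdown cells, and 4 (Csrp2, Myl12b, Tagln and Tpm2) the other way round. The difference between the 2 effects was tested over all 18 libraries. The cells also differ in transfection, and this and the knockdown cannot be told apart in the difference.

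Of 38 members tested, 5 had a CK666 effect that was called lower in knockdown cells than in untransfected cells and 1 higher (background 2.52% and 1.9% of 13511 genes), and 5 and 2 passed the adjusted p (background 4.06% and 3.76%). The median difference over members with a mean count of at least 10 was 0.04, beside -0.04 over all genes. The number that passed the adjusted p, and its split, depended on the libraries kept, with 6 lower and 8 higher without siControl replicate 2, 6 and 6 without siControl replicate 1, 6 and 9 without siControl replicate 2 and CK666 replicate 1, and 6 and 8 with the trend on length removed. The siControl libraries enter this difference only through the shared estimate of spread and the scaling. The 5 members called lower were Acta2, Actg2, Myl12b, Tagln and Csrp2. Tagln went from -0.13 to -2.34, a difference of -2.21 ± 0.41 (adjusted p = 2.64e-06), and Csrp2 from -0.54 to -2.63, a difference of -2.09 ± 0.40 (adjusted p = 5.96e-06). For Actg2 the effects were -0.96 and -2.13 with a difference of -1.17 ± 0.24 (adjusted p = 5.03e-05), and for Acta2 -0.88 and -1.90 with -1.01 ± 0.24 (adjusted p = 0.000557). These genes were therefore lowered more by CK666 on the background of the knockdown. Myl12b (-1.57 ± 0.34, adjusted p = 0.000127) carried the limit on its reads given above. In the other direction Pdlim5 went from -1.12 to 0.08 (1.19 ± 0.35, adjusted p = 0.00939), called with all libraries. The call was lost in 14 of 18 fits that left out 1 library (adjusted p 3.06e-05 to 0.0458 over all 18), and it was kept without CK666 replicate 2, siControl replicate 1, siControl replicate 2 and siArp4 replicate 3. The Pdlim5 call was also lost with edgeR (adjusted p = 0.0464), TMM scaling (adjusted p = 0.0158) and the replicate block (adjusted p = 0.0162). Tpm3 passed without a call (0.32 ± 0.10, adjusted p = 0.00942).

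Without siControl replicate 2 and CK666 replicate 1 the differences were -0.86 (adjusted p = 8.68e-05) for Acta2, under the fold minimum, -1.12 (adjusted p = 1.88e-06) for Actg2, -1.89 (adjusted p = 1.88e-09) for Tagln, -1.77 (adjusted p = 4.75e-08) for Csrp2 and 1.05 (adjusted p = 0.000131) for Pdlim5. Vcl was then called at 1.25 (adjusted p = 0.00761), against 1.45 ± 0.49 (adjusted p = 0.0314) with all libraries. With the trend on length removed, 3 members were called lower and 3 higher. Acta2 and Actg2 were under the fold minimum (-0.81, adjusted p = 1.65e-17 and -0.92, adjusted p = 7.94e-09), and Vcl (1.295, adjusted p = 0.00331) and Mylk (1.04, adjusted p = 0.00099) joined Pdlim5. Without siControl replicate 1 the calls were 6 lower and 3 higher, with Tagln2, Vcl and Mylk gained. With TMM scaling the split was 6 lower and 0 higher. The Acta2 call was also lost without control replicate 2, CK666 replicate 1, siArp4 replicate 1, siArp4+CK666 replicate 1 or siArp4+CK666 replicate 2 (log2 -1.13 to -0.86), and the calls of Actg2, Tagln and Csrp2 were kept whichever library was left out.

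**Figure D5:**
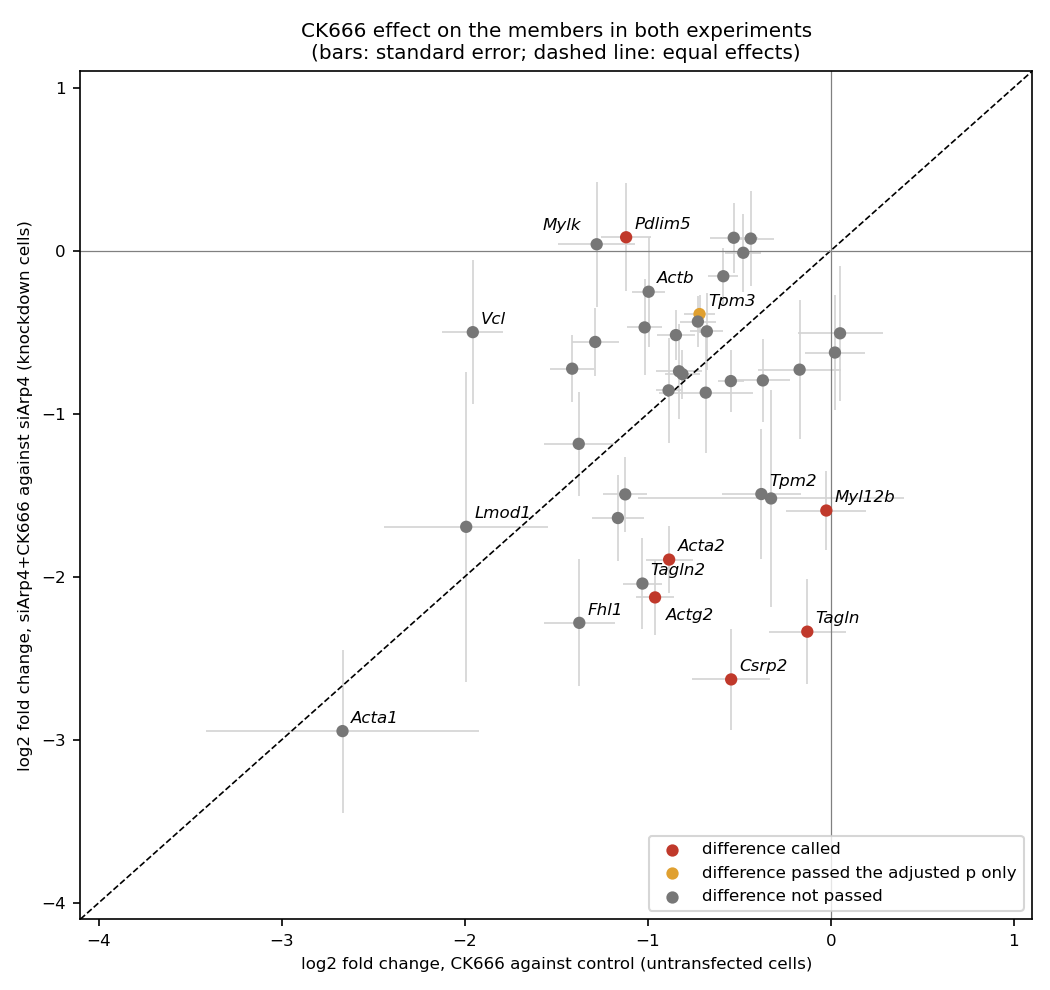
Log2 fold change with CK666 in untransfected cells (x axis) and in knockdown cells (y axis) for the 38 members with a mean of at least 10 counts, with standard errors as bars and a dashed line of equal effects. Tagln, Csrp2, Actg2 and Acta2 lie below the line, with effects of -2.34, -2.63, -2.13 and -1.90 in knockdown cells, and Pdlim5 lies above it.

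The rest of the SRF pathway was read from 3 lists. The first held 20 genes, cofactors of SRF and regulators of filament growth, and 19 were tested. The shares of all genes that fell and rose by the adjusted p stand here beside each count. With CK666 7 fell and 2 rose (all genes 14.7% and 15.3%), led by Rhob, a small GTPase (-2.34 ± 0.09, adjusted p = 9.6e-143), Mrtfa, the gene of the cofactor MRTF-A (-1.43 ± 0.14, adjusted p = 2.23e-21), and Diaph3, a formin that extends filaments (-1.35 ± 0.14, adjusted p = 1.63e-20). With CytoD 7 fell and 2 rose (16% and 13.6%), among them Diaph3 (-1.15 ± 0.14, adjusted p = 6.86e-15) and Mrtfa (-0.71 ± 0.14, adjusted p = 6.81e-06). With siArp4 1 fell and 4 rose (13.1% and 11.9%). Those that rose included Rhob (2.61 ± 0.18, adjusted p = 2.28e-44), Mical2, an oxidase that breaks filaments down (2.07 ± 0.39, adjusted p = 1.23e-06), and Mrtfa (0.72 ± 0.17, adjusted p = 0.000127). The formin gene Diaph1 fell (-1.47 ± 0.18, adjusted p = 1.87e-15). With siArp4+CK666 3 fell and 3 rose against siControl (15.8% and 14%), near the background. CK666 in knockdown cells lowered 3 and raised 0 (6.07% and 3.82%), namely Diaph3 (-2.27 ± 0.46, adjusted p = 2.37e-05), Rhob (-1.76 ± 0.18, adjusted p = 6.76e-20) and Rhoa (-0.83 ± 0.12, adjusted p = 1.07e-09). The CK666 effect on Mrtfa differed between the 2 kinds of cells (1.23 ± 0.20, adjusted p = 4.51e-08), the only call of the difference on this list.

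The second list held 10 immediate early genes, which SRF controls largely with the other family of cofactors, the ternary complex factors. With CK666 6 fell and 0 rose (all genes 14.7% and 15.3%), with Egr2, Egr3 and Klf6, all zinc finger transcription factors, at -1.72 ± 0.28 (adjusted p = 7.53e-09), -1.63 ± 0.20 (adjusted p = 1.14e-14) and -1.17 ± 0.08 (adjusted p = 2.11e-48). With CytoD 3 fell and 0 rose (16% and 13.6%), none of them called. With siArp4 4 fell, led by Egr1 (-2.49 ± 0.16, adjusted p = 1.4e-49) and the early response gene Ier2 (-2.21 ± 0.47, adjusted p = 2.81e-05), and 1 rose, Mcl1, a survival gene (0.95 ± 0.13, adjusted p = 6.95e-12), where 13.1% and 11.9% of all genes did. In this comparison 9 contractile members rose and 6 fell. With siArp4+CK666 5 genes of the list fell and 1 rose against siControl (all genes 15.8% and 14%). CK666 in knockdown cells lowered 0 of them and raised 0 (6.07% and 3.82%).

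The third list held 16 other cytoskeletal targets of SRF and MRTF, of which 15 were tested. With CK666 14 fell and 1 rose (all genes 14.7% and 15.3%). The largest falls were those of Ablim1, an actin-binding LIM protein (-3.38 ± 0.37, adjusted p = 1.68e-18), Ldb3, a PDZ-LIM protein of muscle (-2.43 ± 0.32, adjusted p = 5.4e-13), and Filip1l (-2.13 ± 0.28, adjusted p = 7.01e-13). Tuft1 rose (1.03 ± 0.17, adjusted p = 1.31e-08). With CytoD 8 fell and 1 rose (16% and 13.6%), and 1 was called, Ldb3 (-1.09 ± 0.30, adjusted p = 0.0011), where 4.32% of all genes were called lower. With siArp4 3 fell and 5 rose (13.1% and 11.9%). Among those that rose were Cfl1, encoding the filament-severing cofilin (2.22 ± 0.29, adjusted p = 5.02e-13), Itga5, the fibronectin receptor subunit (2.14 ± 0.16, adjusted p = 1.47e-39), and Filip1l (1.90 ± 0.34, adjusted p = 3.58e-07). Tgfb1i1, a LIM adhesion protein, fell (-1.46 ± 0.21, adjusted p = 2.1e-10). CK666 in knockdown cells lowered 6 and raised 0 (6.07% and 3.82%), with Ablim1 at -2.38 ± 0.53 (adjusted p = 0.000161) and Anxa2, a membrane-binding annexin, at -2.03 ± 0.32 (adjusted p = 1.62e-08). Of the differences between the CK666 effects, 3 were called higher and 3 lower (all genes 1.9% and 2.52%).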

How the data were processed

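RNA was sequenced as unstranded pairs in 18 libraries of 6 groups. Per the submitters' processing notes the authors ran Salmon 1.2.1 on GRCm38 (mm10), and the deposited table held estimated counts per gene, not scaled between libraries. The step from transcripts to genes is not given in the sources used here. Counts were rounded, and no library total moved by more than 277. Gene symbols and coordinates came from GENCODE vM21 of the same build (54094 of 54347 rows matched, 253 did not), and promoter sequences from RefSeq (GRCm38.p6). DESeq2 1.42.0 (R 4.3.3, Wald test, two-sided) was fitted to all genes, over the 9 libraries of each experiment with group as the only term, and over all 18 for the difference between the CK666 effects. Independent filtering was run at 0.01. Normalized counts are counts over the size factors of their own experiment. Levels per length used the union of exons of each gene.

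Samples were grouped by their labels. The members, gene lists, markers and tests were chosen with earlier results of these data known. Values in every library are given for members called in any comparison with a mean count of at least 100, and for Actb, Actg1, Acta2, Tagln, Srf and Myh9, and some others are given beside them; on the pathway lists at most 4 genes are named per comparison by size of change. Alternatives were TMM scaling, edgeR 4.0.16 (quasi-likelihood), a filter on low counts (10 or more in 3 or more libraries), the replicate number as a block, all 18 libraries in 1 fit, a test against a log2 fold change of 0.5, each library left out in turn, and the trend on transcript length removed (a loess of span 0.5), chosen after the data were seen. Same-numbered libraries deviated together in every pair only for control and CK666 (correlations 0.293, 0.233 and 0.165), so the numbers were read as pairs there, from the data alone, and the replicate block left that comparison at 13 calls and 28 members past the adjusted p. That block was fitted over all 9 libraries of the experiment, with replicate terms shared with CytoD. It is therefore not a paired test of control and CK666 alone. No libraries were copies of each other (between replicates the chi-square per degree of freedom was 6.79 or more). Library totals ran from 18075610 to 24733212, and members under about 10 counts could not be read at this depth. The code was tested on simulated counts, where DESeq2 and edgeR recovered the direction of known changes, and DESeq2, unlike edgeR, called more unchanged genes than its threshold allows.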

Additional observations from a re-analysis of the deposited data

Results flagged for a closer look

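The effect of CK666 in knockdown cells differed from its effect in untransfected cells for 6 members by the test of the difference itself (DESeq2, all 18 libraries). It was lower in knockdown cells by -2.21 on the log2 scale for Tagln, -2.09 for Csrp2, -1.57 for Myl12b, -1.17 for Actg2 and -1.01 for Acta2, and higher by 1.19 for Pdlim5. The adjusted p was 2.64e-06 for Tagln, 5.96e-06 for Csrp2, 0.000127 for Myl12b, 5.03e-05 for Actg2, 0.000557 for Acta2 and 0.00939 for Pdlim5. The split of reads between Myl12b and its neighbours is uncertain. The Pdlim5 call was lost with edgeR, TMM scaling, the replicate block and in 14 of 18 fits that left out 1 library. With the trend on length removed, Acta2 (-0.81) and Actg2 (-0.92) were under the fold minimum. Transfection and knockdown cannot be told apart in any of them.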

How the results depend on the processing

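Over the 7 comparisons 71 member calls were made, and 1190 values were recomputed under alternatives. Of these 1044 stayed past both thresholds, 146 did not, and 0 turned in direction. At every setting 41 calls were kept, and at every setting but the test against a log2 fold change of 0.5, 45 were. That test sets no fold minimum of 1 beside the adjusted p, and it was not stricter in every comparison. Calls went up from 13 to 14 for CK666 and from 8 to 11 for CytoD, each against control. They went down from 5 to 3 for CK666 against CytoD, 10 to 3 for siArp4 and 17 to 10 for siArp4+CK666 against siControl. The drop was from 12 to 10 for CK666 in knockdown cells and from 6 to 2 for the difference between CK666 effects. Of the 71 calls 13 were lost with edgeR, 6 with the trend on length removed, 5 with the replicate block, 2 with TMM scaling, 1 without both siControl replicate 2 and CK666 replicate 1, and 24 without 1 library. Members past the adjusted p alone went from 28 to 18 for CytoD and from 19 to 11 for CK666 against CytoD with all 18 libraries in 1 fit, from 17 to 10 for CK666 in knockdown cells with edgeR, and for the difference between CK666 effects from 7 to 14 with the trend on length removed and to 15 without both of those libraries. The cause of these changes was not tested. With 1 library left out, the calls (and members past the adjusted p alone) ran from 11 to 14 (26 to 32) for CK666, 6 to 9 (22 to 34) for CytoD, 3 to 5 (14 to 25) for CK666 against CytoD, 7 to 11 (11 to 21) for siArp4, 13 to 20 (14 to 24) for siArp4+CK666 against siControl, 10 to 12 (11 to 23) for CK666 in knockdown cells and 4 to 9 (5 to 14) for the difference between CK666 effects, which had 14 without siControl replicate 2 and 12 without siControl replicate 1. The replicate block gave 13 (28), 9 (27), 4 (16), 10 (15), 16 (19), 12 (15) and 5 (6) in the same order; outside control and CK666 the numbers were taken as names only, since same-numbered libraries correlated from -0.582 to 0.744. The block ended the calls of Actb, Actg1, Cnn1, Lmod1 and Pdlim5 in 1 comparison each. Low-count members (Actc1, Myh11, Synpo2, Cnn1, Lmod1 and Acta1) are limited by depth.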
